A study of Mus musculus with 20 samples.

Results

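The genes described here encode the constant regions of mouse antibodies and the chain that joins antibodies into polymers. They are 10 of the 54309 genes in the count table: the heavy chain isotype genes Ighm, Ighg1, Ighg2b, Ighg2c, Ighg3 and Igha, the light chain genes Igkc, Iglc1 and Iglc2, and Jchain. They were found by matching the Ensembl identifiers of the table to these symbols, a rule that reads no measured value, although the genes were picked with earlier results of these data known. All 10 passed the low-count filter, which kept 19567 genes in all.

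An antibody is built from paired heavy and light chains. A naive B cell makes IgM and IgD from the Ighm and Ighd genes, and after activation it can recombine the heavy chain locus so that the same variable region is joined to a gamma, epsilon or alpha constant region, which gives IgG, IgE or IgA. Each light chain carries either a kappa constant region, from Igkc, or a lambda one, from the Iglc genes, and in mice kappa is the more common. Plasma cells make antibody messages in very large amounts. They also make the J chain, which links IgM and IgA into polymers that the receptor Pigr can carry across epithelia.

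RNA was sequenced from SCCVII tumors, a squamous cell carcinoma line of the mouse. The line had been implanted under the skin of C3H/HeOuJ mice with an intact immune system. Each library therefore holds tumor cells together with host cells of the sampled tissue, whether these had entered the tumor or lay next to it. The 20 libraries form 10 groups of 2, called A and B. Single agents were APG-157 (a botanical drug from Curcuma longa that contains curcumin, fed in the chow), the checkpoint antibodies anti-PD-1 and anti-CTLA-4, which block inhibitory receptors of T cells, and anti-CD8, an antibody used to deplete CD8 T cells. APG-157 was also given with either checkpoint antibody, which gave the groups APG-157 + anti-PD-1 and, separately, APG-157 + anti-CTLA-4. The remaining groups are anti-PD-1 + anti-CTLA-4, called dual blockade here, the same antibodies with APG-157, called the triple combination, APG-157 + anti-CTLA-4 in mice that also had anti-CD8, called the CD8-depleted combination, and control. The labels do not say whether libraries A and B were made from separate tumors. A p-value here covers no more than the differences among these libraries, which may be technical. For APG-157 + anti-CTLA-4 the paper mentions a single small tumor for some other assays. It also describes the anti-CD8 groups in a separate depletion experiment with its own control and APG-157 + anti-CTLA-4 groups. The labels do not say which experiment the control and APG-157 + anti-CTLA-4 libraries came from. Differences between experiments may therefore be mixed with depletion in every comparison of an anti-CD8 group.

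The heavy chain genes lie in 1 cluster on the minus strand of chromosome 12. On the mouse build GRCm38 (GENCODE vM21), the cluster of these members runs from Ighm at chr12:113418558-113422730 through Ighg3, Ighg1, Ighg2b and Ighg2c to Igha at chr12:113254830-113260236. Igkc is a single exon at chr6:70726435-70726966. Iglc1 lies at chr16:19061618-19062071, Iglc2 at chr16:19198396-19200351, and Jchain at chr5:88519809-88527891. These positions are from the reference annotation and were not used with the files, which were made on GRCm39.

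Several members are close copies of each other, and this bears on how far their counts can be told apart. Bases from the start of the lambda constant exons are shown because Iglc2 has a near copy, Iglc3, that is not among the 10 genes. They are read 5′ to 3′ on the minus strand of GRCm38, with 1 leading base of the Iglc2 exon left out so that the sequences align, and capitals mark bases that differ from Iglc2 (Iglc2 at chr16:19198793-19198852, Iglc3 at chr16:19065622-19065681, Iglc1 at chr16:19062012-19062071).
Iglc2: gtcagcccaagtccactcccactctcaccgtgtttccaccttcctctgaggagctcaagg
Iglc3: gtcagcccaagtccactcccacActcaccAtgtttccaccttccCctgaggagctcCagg
Iglc1: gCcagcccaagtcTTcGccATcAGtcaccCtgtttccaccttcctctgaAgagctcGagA

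Over these 60 bases Iglc3 differed from Iglc2 at 4 positions and Iglc1 at 12. Over whole transcripts, Iglc2 and Iglc3 were 94.3% identical, and 106 of the 428 stretches of 31 bases in Iglc2 also occur in Iglc3. Iglc1 shared no such stretch with either. Counts of Iglc2 are therefore uncertain against Iglc3, and values with both genes summed are given beside the light chain shares.

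The IgG genes are shown in the same way at the start of their first constant exon, with capitals where a base differs from Ighg1 (GRCm38, minus strand, Ighg1 at chr12:113330464-113330523, Ighg2b at chr12:113307874-113307933, Ighg2c at chr12:113288873-113288932, Ighg3 at chr12:113361173-113361232).
Ighg1: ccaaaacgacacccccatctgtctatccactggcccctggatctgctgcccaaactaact
Ighg2b: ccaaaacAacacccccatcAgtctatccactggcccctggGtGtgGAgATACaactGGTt
Ighg2c: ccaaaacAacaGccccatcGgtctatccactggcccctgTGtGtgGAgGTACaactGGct
Ighg3: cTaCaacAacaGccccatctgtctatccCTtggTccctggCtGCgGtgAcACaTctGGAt

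Ighg2b and Ighg2c were the closest pair of IgG genes, with 86.2% identity over whole transcripts and 125 of the 1084 stretches of 31 bases of Ighg2b also in Ighg2c. The other 5 pairs were 72.5% to 74.7% identical and shared at most 23 such stretches. The reference genome is that of C57BL/6, which carries Ighg2c. Many other strains carry Ighg2a at this place in the cluster, so for C3H/HeOuJ tumors the counts under Ighg2c are counts assigned to the C57BL/6 gene.

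Library totals were 43.9 to 72.1 M counts (median 54.9 M, with M for mega). Levels are given as CPM, the counts per M of the library total after scaling by TMM. Library B of the CD8-depleted combination stood apart from the other 19 libraries. It had 4028 CPM summed over 6 adipocyte markers, where the next highest library had 116 CPM. It also had 1947 counts of Pigr and 1025 of Vpreb3, a surrogate light chain gene. Epcam and Cdh1, listed with the squamous tumor cell markers, had 218 and 224 CPM there, against 0.608 and 5.15 CPM in library A of this group. Ccl21a, listed with lymph node stroma and vessels, had 60.9 CPM in B and 0.130 CPM in A. Their part in the immunoglobulin values was not tested. The libraries of APG-157 + anti-CTLA-4 were much closer to each other than any other pair, with a biological coefficient of variation of 4.25% against 20.8% to 68.2% elsewhere, though they differed by more than sampling noise. Cd8a, which encodes the antigen that anti-CD8 is directed at, had 8 and 9 counts in anti-CD8 libraries and 18 and 18 counts in the CD8-depleted combination libraries, against 315 and 343 counts in control libraries.

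Ighm had the most counts of the 10 members in every library. Per kilobase of transcript, the median level over the 20 libraries was 44.4 CPM for Ighm, 5.92 CPM for Igkc, 2.01 CPM for Igha, 0.88 CPM for Ighg1 and 0.689 CPM for Jchain. The median was 0.238 CPM per kilobase for Ighg2b, 0.226 CPM for Iglc2, 0.209 CPM for Ighg2c, 0.179 CPM for Iglc1 and 0.07 CPM for Ighg3. Among the other constant genes, Ighd had a median of 1.85 CPM per kilobase, whereas Ighe, the IgE gene, had 3 counts in all 20 libraries together. In library B of the CD8-depleted combination alone, Igkc (16.0 CPM over 532 bases) was above Ighm (33.0 CPM over 1493 bases) on the per-kilobase scale. Ighm varied 5.53-fold from lowest to highest library, which was less than Jchain 29.1-fold, Igha 38.9-fold and Igkc 61.5-fold. In bulk tissue, fewer cells of a type and less RNA per cell cannot be told apart.

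**Figure D1:**
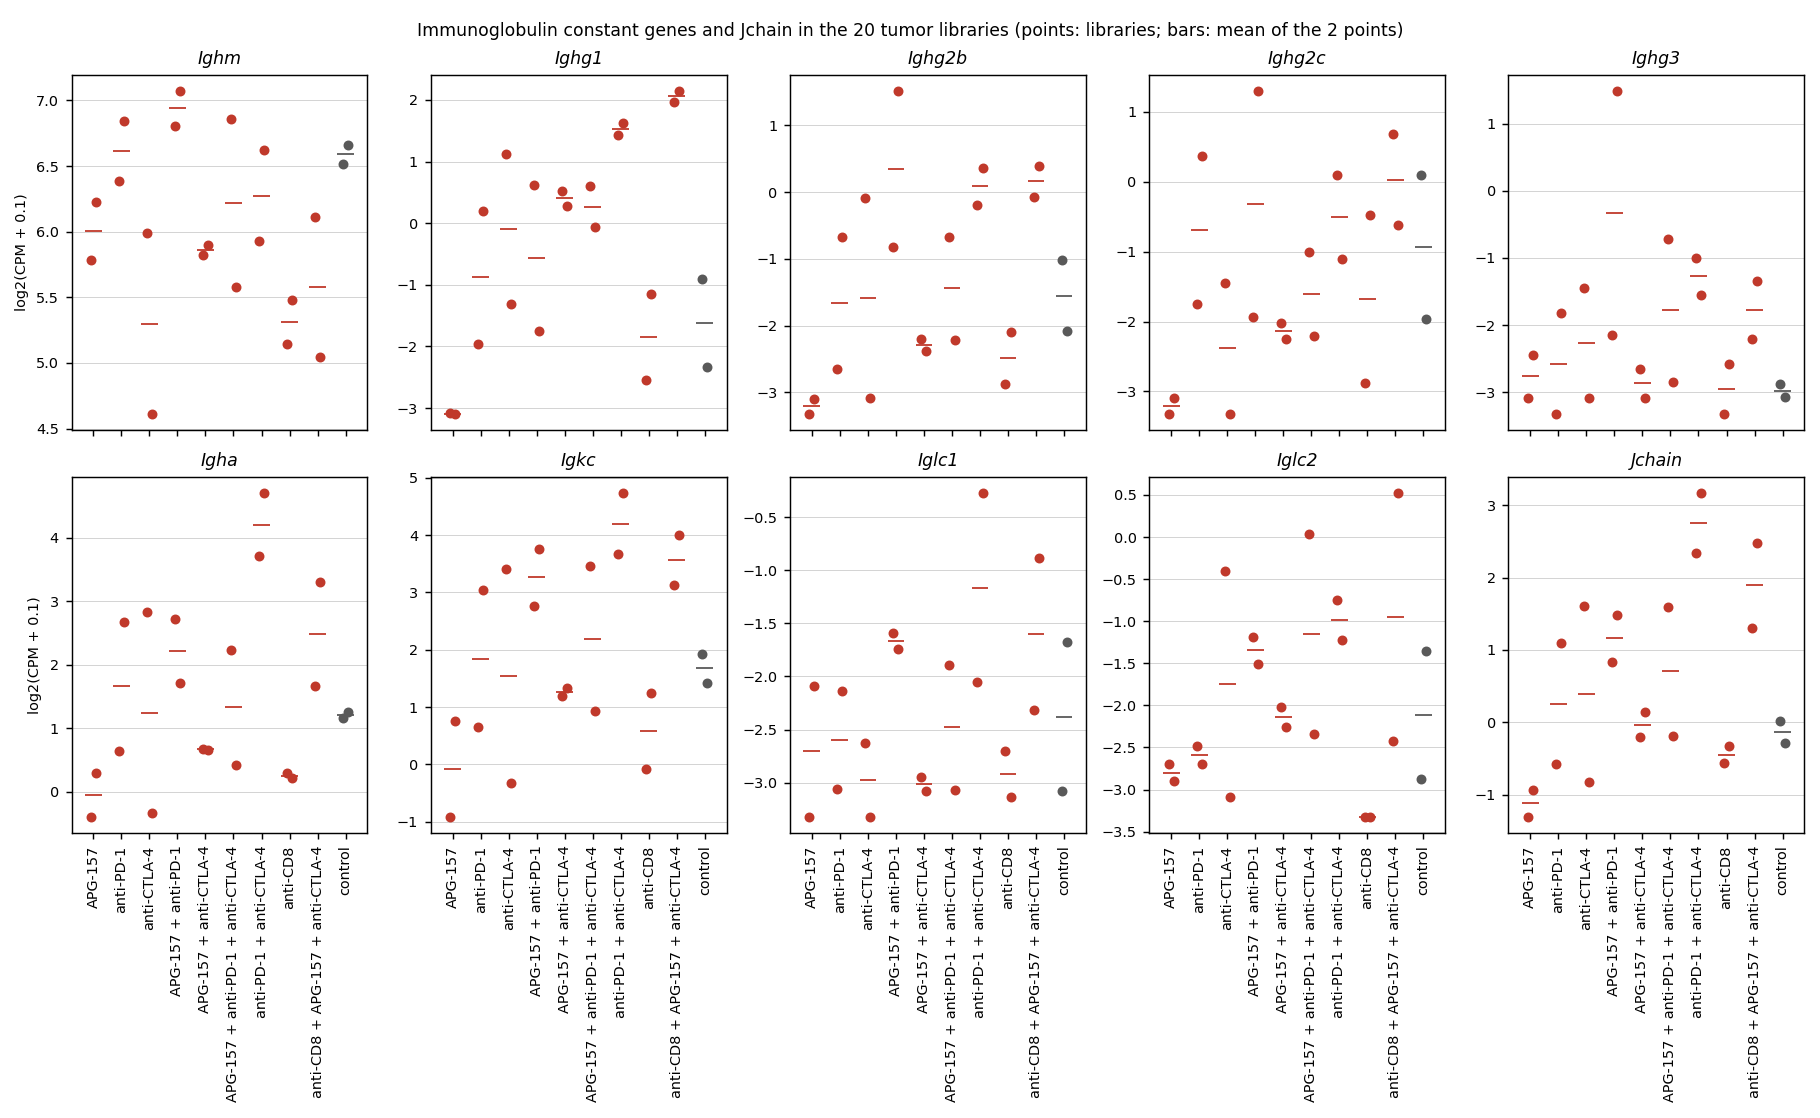
Level of each of the 10 genes in the 20 tumor libraries, as log2 of CPM plus 0.1, by group with control at the right. Points are libraries and bars the mean of the 2 points. Igha, Igkc and Jchain share a highest library, B of dual blockade, and a lowest one, A of APG-157, while Ighm lies between 24.3 and 134.7 CPM with another order of groups.

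Ighm encodes the mu heavy chain of IgM. It had 54.9 and 74.8 CPM in APG-157 libraries A and B, 83.6 and 114.8 CPM in anti-PD-1, 63.4 and 24.3 CPM in anti-CTLA-4, 112.0 and 134.7 CPM in APG-157 + anti-PD-1, and 56.6 and 59.6 CPM in APG-157 + anti-CTLA-4. It had 115.8 and 47.6 CPM in the triple combination, 60.9 and 98.2 CPM in dual blockade, 35.2 and 44.6 CPM in anti-CD8, 69.1 and 33.0 CPM in the CD8-depleted combination, and 91.4 and 101.2 CPM in control. The highest mean level was in APG-157 + anti-PD-1 and the lowest in anti-CD8. Every pair of neighbouring groups in the order of means overlapped in its libraries. In control both libraries were above those of anti-CD8, anti-CTLA-4, APG-157, APG-157 + anti-CTLA-4 and the CD8-depleted combination. The fitted log2 fold change against control was −1.27 in anti-CD8 (SE 0.484, unadjusted p = 0.0214) and −1.14 in anti-CTLA-4 (SE 0.483, unadjusted p = 0.0357), and after adjustment over all genes neither passed (edgeR adjusted p = 1 and 0.766). Without anti-CTLA-4 library A the value in anti-CTLA-4 was −2.02, and over all alternatives it was −2.02 to −0.643.

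Ighm messages far outnumbered those of the variable segments that a rearranged heavy chain would carry. The 185 Ighv segments of the table summed to 0.124 to 6.06 CPM per library, and Ighm was 12.8 to 443 times this sum (median 71.3). By comparison, the 5 switched heavy chain genes together were 2.17 to 8.29 times the Ighv sum, and Igkc was 1.2 to 3.83 times the summed 160 Igkv segments. C3H/HeOuJ segments were counted on C57BL/6 sequences, and the part of this in the ratios was not tested.

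The IgG genes differed among themselves in which tumors had most. Ighg1 encodes the IgG1 subclass, which in mice is typical of T cell help with interleukin 4. It had 0.0179 and 0.0169 CPM in APG-157 libraries A and B, 0.158 and 1.04 CPM in anti-PD-1, 2.07 and 0.302 CPM in anti-CTLA-4, 1.44 and 0.199 CPM in APG-157 + anti-PD-1, and 1.34 and 1.11 CPM in APG-157 + anti-CTLA-4. It had 1.42 and 0.853 CPM in the triple combination, 2.59 and 3.00 CPM in dual blockade, 0.0718 and 0.349 CPM in anti-CD8, 3.81 and 4.34 CPM in the CD8-depleted combination, and 0.431 and 0.0972 CPM in control. The 2 libraries of the CD8-depleted combination were the highest of the 20, those of dual blockade came next, and the 2 APG-157 libraries, with 1 count each, were the lowest. In the order of group means, 3 of the 9 pairs of neighbours did not overlap.

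Ighg2b, Ighg2c and Ighg3 had their highest value in 1 library, B of APG-157 + anti-PD-1. Ighg2b and Ighg2c encode IgG subclasses that bind activating Fc receptors strongly, and Ighg3 is a subclass often made against carbohydrates. In libraries A and B of APG-157 + anti-PD-1, Ighg2b had 26 and 153 counts, Ighg2c 9 and 131 counts and Ighg3 7 and 150 counts. Control libraries A and B had 22 and 7 counts of Ighg2b, 54 and 8 counts of Ighg2c and 2 and 1 counts of Ighg3. APG-157 libraries had 0 and 1 counts of Ighg2b, 0 and 1 counts of Ighg2c and 1 and 5 counts of Ighg3. Over all 20 libraries the median was 16 counts for Ighg2b, 11.5 for Ighg2c and 5 for Ighg3, so that most of these values rest on few molecules.

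Igha, which encodes the alpha chain of IgA, the isotype of mucosal surfaces, was the most abundant switched isotype in 19 of the 20 libraries. It had 0.663 and 1.13 CPM in APG-157 libraries A and B, 1.46 and 6.3 CPM in anti-PD-1, 6.99 and 0.693 CPM in anti-CTLA-4, 6.49 and 3.18 CPM in APG-157 + anti-PD-1, and 1.5 and 1.48 CPM in APG-157 + anti-CTLA-4. It had 4.61 and 1.24 CPM in the triple combination, 12.95 and 25.8 CPM in dual blockade, 1.13 and 1.06 CPM in anti-CD8, 3.07 and 9.75 CPM in the CD8-depleted combination, and 2.14 and 2.29 CPM in control. The 2 libraries of dual blockade lay above all other 18 libraries.

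Igkc, the kappa constant gene, is carried by most mouse antibodies of any isotype. It had 0.43 and 1.59 CPM in APG-157 libraries A and B, 1.46 and 8.13 CPM in anti-PD-1, 10.5 and 0.693 CPM in anti-CTLA-4, 6.7 and 13.5 CPM in APG-157 + anti-PD-1, and 2.19 and 2.41 CPM in APG-157 + anti-CTLA-4. It had 10.9 and 1.8 CPM in the triple combination, 12.6 and 26.5 CPM in dual blockade, 0.843 and 2.27 CPM in anti-CD8, 8.71 and 16.0 CPM in the CD8-depleted combination, and 3.72 and 2.59 CPM in control. The 2 libraries of anti-PD-1, of anti-CTLA-4 and of the triple combination lay far apart, on either side of control. Of the 9 pairs of neighbours in the order of group means, 1 did not overlap.

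The lambda genes were low. Iglc1 had 0 to 42 counts and Iglc2 0 to 63 counts per library, with 2 libraries at 0 for each. Both Iglc2 zeros were the anti-CD8 libraries, against 2 and 15 counts in control libraries A and B. With a floor of 3 counts over the anti-CD8 group, Iglc2 was 6.89-fold lower in anti-CD8 than in control. The 17 control counts were taken as they stand, so their counting error is not in this bound. The bound rests on control library B, since with the 2 counts of library A alone the same floor gave 1.56-fold. Iglc3 had 2 to 26 counts per library. With Iglc2 and Iglc3 summed, chosen after seeing the data, anti-CD8 had 11 counts and control 39, a ratio of 0.232 scaled for depth (95% counting interval 0.107 to 0.462), and without control library B 0.784 (0.266 to 2.58). Igkc made up 83.6% to 99.4% of the counts of Igkc, Iglc1 and Iglc2 (median 94.0%). The median was 93.0% per base of transcript, and 90.5% with Iglc3 added to Iglc2. The lowest share, 83.6% in control library B (95% Wilson interval 77.1% to 88.6%), and the 98.6% of control library A (95.9% to 99.5%) came from the same group. These intervals cover counting error only.

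Jchain followed the light chain and IgA closely. It had 0.305 and 0.422 CPM in APG-157 libraries A and B, 0.573 and 2.03 CPM in anti-PD-1, 2.93 and 0.462 CPM in anti-CTLA-4, 1.68 and 2.71 CPM in APG-157 + anti-PD-1, and 0.765 and 1.01 CPM in APG-157 + anti-CTLA-4. It had 2.93 and 0.776 CPM in the triple combination, 4.98 and 8.87 CPM in dual blockade, 0.574 and 0.699 CPM in anti-CD8, 2.36 and 5.5 CPM in the CD8-depleted combination, and 0.916 and 0.719 CPM in control. The highest libraries were the same as for Igkc, B of dual blockade and B of the CD8-depleted combination. For each count of Igkc there were 0.201 to 0.708 counts of Jchain (median 0.321) and 0.236 to 1.54 counts of Igha (median 0.7), while Ighm had 2.06 to 127.7 counts (median 22.1).

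Across the 20 libraries, members fell into those that moved with Igkc and Ighm, which moved less with them. On log2 of CPM plus 0.1, Pearson's r with Igkc was 0.96 for Jchain, 0.94 for Ighg2b, 0.92 for Igha, 0.75 for Ighg1 and 0.48 for Ighm. Among the 9 members other than Ighm, the 36 pairs had r of 0.28 to 0.96 (median 0.73), and Ighm had r of 0.03 to 0.48 with these 9 (median 0.40). The points share library preparation and group, low counts weaken r for the lambda and IgG genes, and these values are descriptions.

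The summed variable segments moved with the same members. The Igkv sum had r = 0.98 with Igkc and 0.50 with Ighm, and the Ighv sum had r = 0.89 with Igha and 0.48 with Ighm. Ighm was instead closest to Ighd among the constant genes compared (r = 0.85), which is transcribed from the same promoter. Ighm had 20.8 to 97.9 counts for each count of Ighd.

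**Figure D2:**
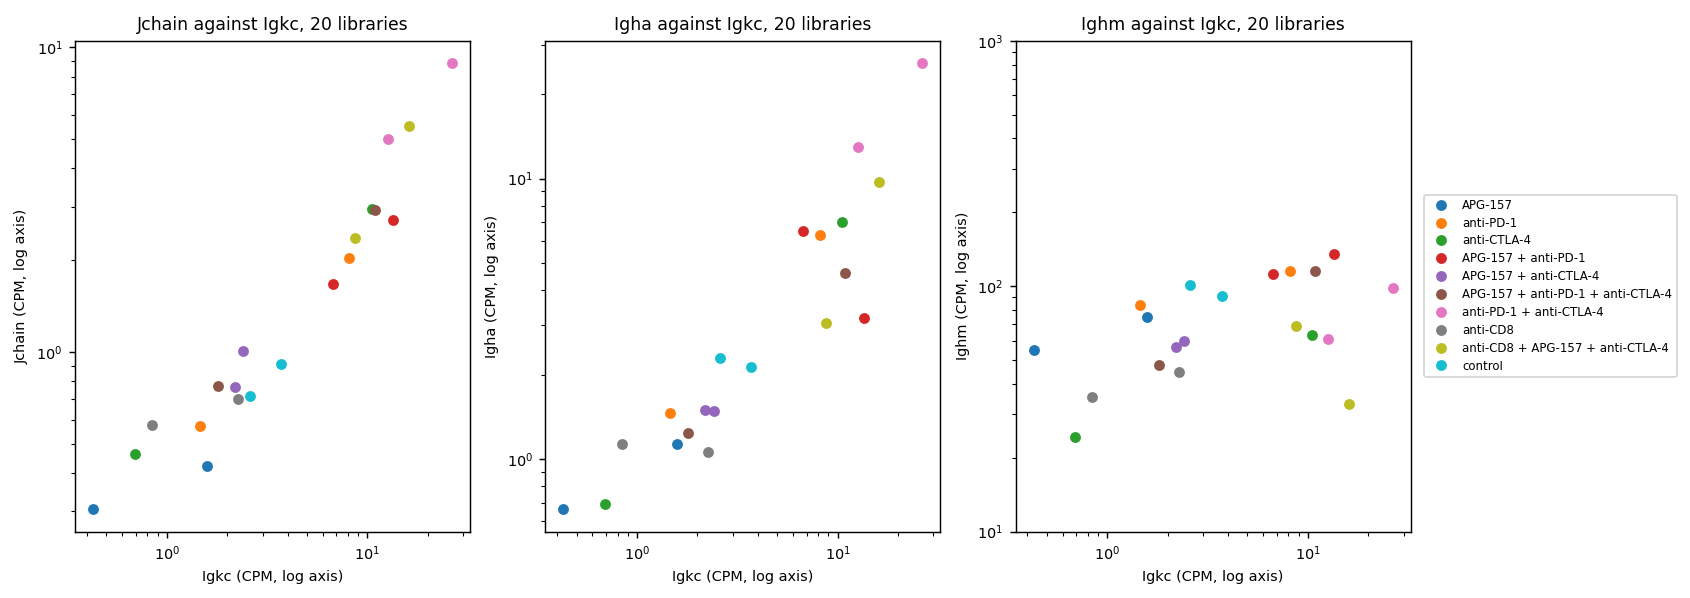
Jchain, Igha and Ighm against Igkc in CPM on log axes, 1 point per library and 1 color per group. Jchain and Igha rise along with Igkc over its range of 0.43 to 26.5 CPM (r = 0.96 and 0.92), whereas Ighm does so less (r = 0.48).

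Outside the immunoglobulin genes and segments, the 5 genes whose pattern was most like that of Igkc over the 20 libraries were Tmem51 (r = 0.88), Cd5 (0.88), Bcl11b (0.87), Izumo1r (0.87) and Cd4 (0.87). Cd5, Bcl11b and Cd4 are T cell genes, and Izumo1r, folate receptor 4, marks subsets of CD4 T cells. This list was not stable, since 1 of the 5 was kept with Spearman's rho, 2 with a pseudocount of 1 and 3 without the library with the highest Igkc. The genes most like Ighm, looked up after its values were seen, were Clec4a3 (r = 0.90), Fgd2 (0.88) and Siglece (0.88). Clec4a3 and Siglece encode receptors of myeloid cells. Among macrophage markers, r with Ighm was 0.65 for Csf1r, 0.38 for Cd68 and 0.26 for Lyz2. The stability of the list for Ighm was not tested. For Igkc, r was 0.61 with Clec4a3 and 0.44 with Siglece.

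The marker genes of B cells and plasma cells had very unequal levels. The 15 B cell markers found in the table summed to 82.7 to 173 CPM per library, a sum made up largely of Cd72 (41.4 to 115 CPM) and Blnk (24.8 to 36.4 CPM). In contrast, Ms4a1, which encodes the B cell surface protein CD20, had 0.178 to 1.92 CPM, Cd79a, a signaling chain of the B cell receptor, 0.185 to 1.27 CPM, and Pax5, the factor that maintains B cell identity, 0.0403 to 0.717 CPM. Among plasma cell genes, Xbp1 (92.6 to 169 CPM) and Sdc1 (48.4 to 81.7 CPM), which epithelial cells also express, were high in every library. Mzb1, an antibody-folding helper of plasma cells, had at most 0.846 CPM, and Tnfrsf17, the plasma cell receptor BCMA, at most 0.196 CPM, with a median of 0.0372 CPM. With Igkc, r was 0.62 for Cd79b, the other signaling chain, 0.54 for Mzb1, 0.17 for Ms4a1 and 0.16 for Tnfrsf17 over the 20 libraries.

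Isotype shares were measured as counts of each gene among summed counts. Ighm made up 67.2% to 98.7% of the 6 heavy chain genes (median 94.97%, or 93.3% per base of transcript). It was lowest in library B of the CD8-depleted combination (67.2%, 95% Wilson interval 65.2% to 69.0%) and in libraries A and B of dual blockade (77.5%, 76.0% to 78.9%, and 76.2%, 75.3% to 77.2%), against 95.8% (95.3% to 96.3%) and 97.4% (96.9% to 97.8%) in control libraries A and B. Among the 5 switched genes, Igha took 28.3% to 94.9% (median 67.1%) and the 4 IgG genes together 5.13% to 71.7% (median 32.9%).

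The switched shares differed as much within groups as between them in several groups. In control, Igha was 53.8% of the switched counts in library A (Wilson interval 47.3% to 60.3%) and 84.9% in library B (78.0% to 89.9%). With APG-157 + anti-PD-1 the share was 74.7% in A (70.7% to 78.4%) and 28.3% in B (24.9% to 32.0%), and in anti-CD8 88.7% in A (79.3% to 94.2%) and 47.6% in B (40.1% to 55.2%). Dual blockade had 73.2% in A (69.9% to 76.2%) and 84.4% in B (82.6% to 86.0%).

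The share of Ighg1 among switched counts was 42.3% and 39.6% in APG-157 + anti-CTLA-4 libraries A and B, 40.7% and 26.9% in the CD8-depleted combination, 19.0% and 36.1% in the triple combination, 19.8% and 29.3% in anti-CTLA-4, 14.7% and 9.79% in dual blockade, and 10.9% and 3.6% in control. In APG-157 libraries it was 2.56% and 1.33%, from 39 and 75 switched counts in all. In APG-157 + anti-PD-1 it was 16.6% and 1.77%, and in anti-PD-1 8.42% and 11.3%. Anti-CD8 libraries had 5.63% and 15.7%. Both libraries were above both of control in APG-157 + anti-CTLA-4, the CD8-depleted combination, the triple combination and anti-CTLA-4. This did not hold in dual blockade, which also had anti-CTLA-4, and was looked up after the values were seen. Single libraries of APG-157 + anti-PD-1, anti-CD8 and anti-PD-1 were above both of control as well. No p is given for a share.

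**Figure D3:**
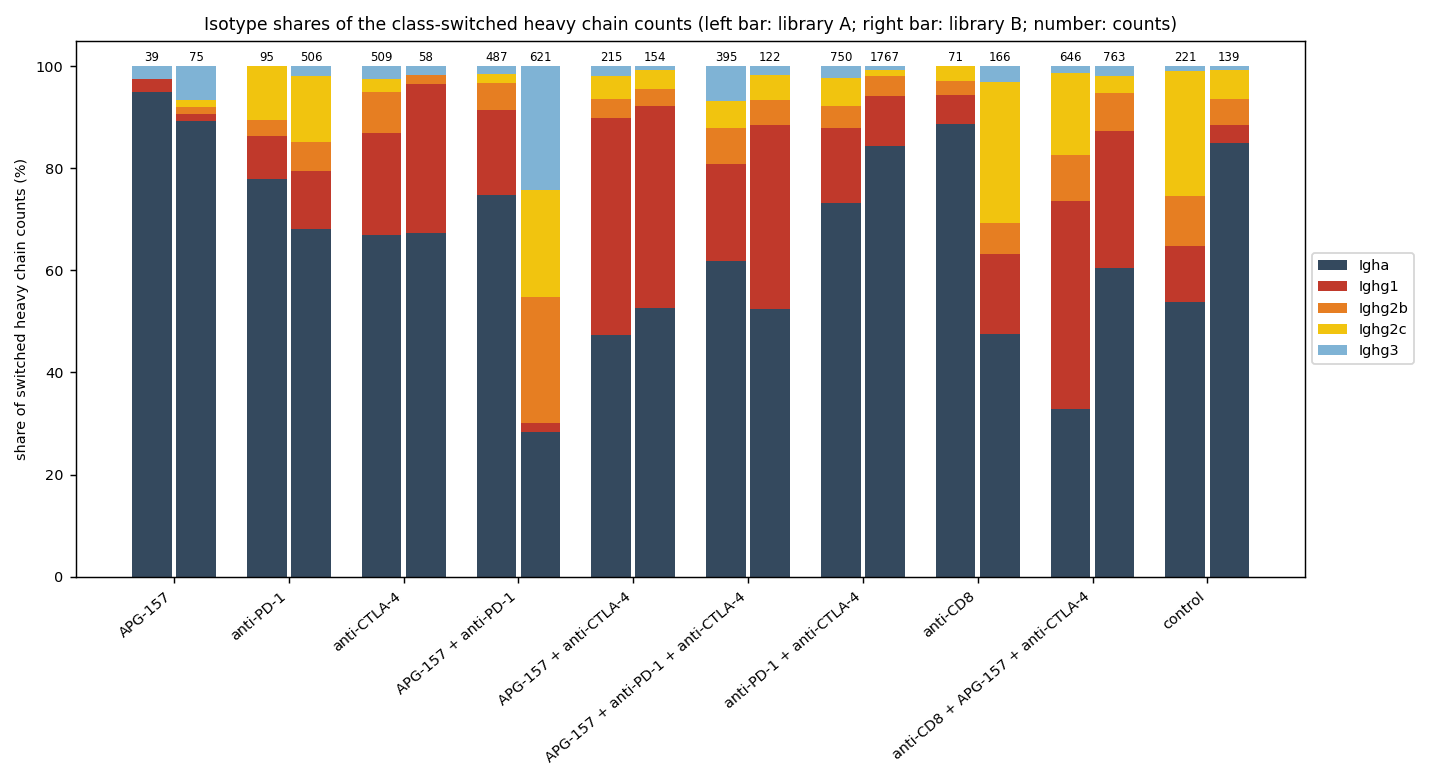
Share of each switched isotype among the summed counts of Igha, Ighg1, Ighg2b, Ighg2c and Ighg3, in percent, with library A at the left and B at the right of each group, control at the far right, and the number of counts above each bar. Igha is the largest share in 19 of 20 libraries, and the exception is library A of the CD8-depleted combination, where Ighg1 holds 40.7% and Igha 32.8%.

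Group differences were tested gene by gene with edgeR's quasi-likelihood test on all 20 libraries, and genes with a p under 0.05 after Benjamini-Hochberg adjustment over 19567 genes were called. None of the 10 members was called in any of the 14 comparisons by edgeR. The comparisons share control samples, and the factorial ones share libraries with the rest. Of all genes, edgeR called 0% in 7 of the 9 comparisons with control: each of the 4 single agents, APG-157 + anti-PD-1, the triple combination and dual blockade. It called 0.0204% in APG-157 + anti-CTLA-4 against control and 0.0102% in the CD8-depleted combination against control.

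DESeq2, run as an alternative, called members in 5 of the 14 comparisons, and the comparisons below name them. At an unadjusted p under 0.05, edgeR gave 0 members in anti-PD-1, in APG-157 + anti-CTLA-4 and in the triple combination against control, and DESeq2 called none there. Igkc in APG-157 + anti-CTLA-4 against control had a log2 fold change of −0.45 (SE 1.14, edgeR adjusted p = 0.897) and Jchain 0.11 (SE 0.825, edgeR adjusted p = 0.974).

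The 8 groups without anti-CD8 form a factorial in which each of the 3 agents is present or absent, which asks what each agent did on average over the others (its main effect), with 8 libraries on either side. With anti-PD-1, all 10 members had positive log2 fold changes, with a median of 1.74 against −0.02 over all genes, and 8 of 10 had an unadjusted p under 0.05 (8.77% of all genes did). These are not independent, since the 9 members other than Ighm had a median r of 0.73 with each other. Libraries with anti-PD-1 had 1.46, 9.52 and 26.5 CPM of Igkc (lowest, median, highest), against 0.43, 2.3 and 10.5 CPM in those without. For Jchain they had 0.573, 2.37 and 8.87 CPM, against 0.305, 0.742 and 2.93 CPM.

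These ranges overlapped widely, and 6 of 8 libraries with anti-PD-1 for Igkc and 7 of 8 for Jchain lay above the median of the libraries without. The log2 fold change was 1.8 for Igkc (SE 0.584), 1.59 for Jchain (SE 0.419), 1.64 for Igha (SE 0.482), 1.92 for Ighg1 (SE 0.591), 2.54 for Ighg2b (SE 0.75), 2.62 for Ighg2c (SE 0.893), 2.57 for Ighg3 (SE 0.894) and 0.58 for Ighm (SE 0.239). All had an edgeR adjusted p of 0.561, and edgeR called 0% of all genes. These values average log2 levels, so the 0 and 1 counts of Ighg2b and of Ighg2c in APG-157 libraries weigh on them. Mean levels with and without anti-PD-1 were 0.802 and 0.202 CPM of Ighg2b, and 0.719 and 0.208 CPM of Ighg2c. Single libraries moved several of the log2 fold changes by over 1.5 times. Without anti-CTLA-4 library A they were 2.56 for Igkc, 2.26 for Igha, 3.65 for Ighg2b, 4.09 for Ighg2c and 3.28 for Ighg3. Ighg3 was 1.23 without anti-PD-1 library B, 1.9 without library A of the triple combination and 1.72 without library B of APG-157 + anti-PD-1. Leaving out APG-157 library B gave 3.13 for Ighg2b and 3.2 for Ighg2c, while Ighg2c had 1.9 without library B of APG-157 + anti-PD-1. DESeq2 called Igha (log2 fold change 1.65, adjusted p = 0.0347) and Jchain (1.6, adjusted p = 0.0202), where it called 0.843% of all genes.

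Other cell types differed between the same libraries. The 10 T cell markers summed to 52.0 to 381 CPM with anti-PD-1 and 38.7 to 266 CPM without, and 9 of 10 had an unadjusted p under 0.05. The 8 skeletal muscle markers summed to 3.84 to 4258 CPM with and 4.5 to 1561 CPM without, and 6 of 8 had an unadjusted p under 0.05. Their part in the immunoglobulin values was not tested.

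With anti-CTLA-4, Ighg1 stood out among the members. Libraries with anti-CTLA-4 had 0.302, 1.38 and 3.00 CPM (lowest, median, highest), against 0.0169, 0.178 and 1.44 CPM without, and all 8 lay above the median of those without. Mean levels over groups were 1.59 CPM with and 0.426 CPM without. The fitted log2 fold change averages log2 levels, so the APG-157 libraries, with 1 count of Ighg1 each, weigh on it. It was 2.7 (SE 0.601), and the edgeR adjusted p of 0.0801 did not pass, where edgeR called 0.250% of all genes. DESeq2 called Ighg1 (log2 fold change 2.75, adjusted p = 6.57e-04), with 3.23% of all genes called. Over the alternatives the adjusted p was 6.57e-04 to 0.285, and edgeR also called Ighg1 without anti-CTLA-4 library B (adjusted p = 0.049).

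Of the other members with anti-CTLA-4, Jchain had a log2 fold change of 1.12 (SE 0.415, edgeR adjusted p = 0.33), Igkc 0.84 (SE 0.572, edgeR adjusted p = 0.739) and Ighm −0.55 (SE 0.239, edgeR adjusted p = 0.454). Without anti-CTLA-4 library A the value of Igkc was 0.08. The T cell markers summed to 52.0 to 381 CPM with anti-CTLA-4 and 38.7 to 180 CPM without. Of these, 9 of 10 had an unadjusted p under 0.05, as did 10.1% of all genes. Among B cell markers with an unadjusted edgeR p under 0.05, the log2 fold change was −1.37 for Cd79b, −0.83 for Bank1 and 0.76 for Fcrla. The part of the T cell and B cell markers was not tested.

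With APG-157, 2 of 10 members had positive log2 fold changes and the median was −0.84 against −0.02 over all genes. Libraries with APG-157 had 0.663, 1.49 and 6.49 CPM of Igha, against 0.693, 4.3 and 25.8 CPM without, with wide overlap. The log2 fold change was −1.27 for Igha (SE 0.478, edgeR adjusted p = 0.657), −0.87 for Igkc (SE 0.572, edgeR adjusted p = 0.691) and −0.81 for Jchain (SE 0.413, edgeR adjusted p = 0.66). Of the 10 members, Igha alone had an unadjusted p under 0.05 in edgeR, as did 7.36% of all genes. Without anti-CTLA-4 library A the values were −0.64 for Igha and −0.11 for Igkc. None of the 10 T cell markers had a positive value (median −0.86), and their part was not tested. Neither edgeR, which called 0% of all genes, nor DESeq2 called a member. For the APG-157 by anti-CTLA-4 interaction, no member had an unadjusted p under 0.05 in edgeR, DESeq2 called none, and edgeR called 0.00511% of all genes.

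**Figure D4:**
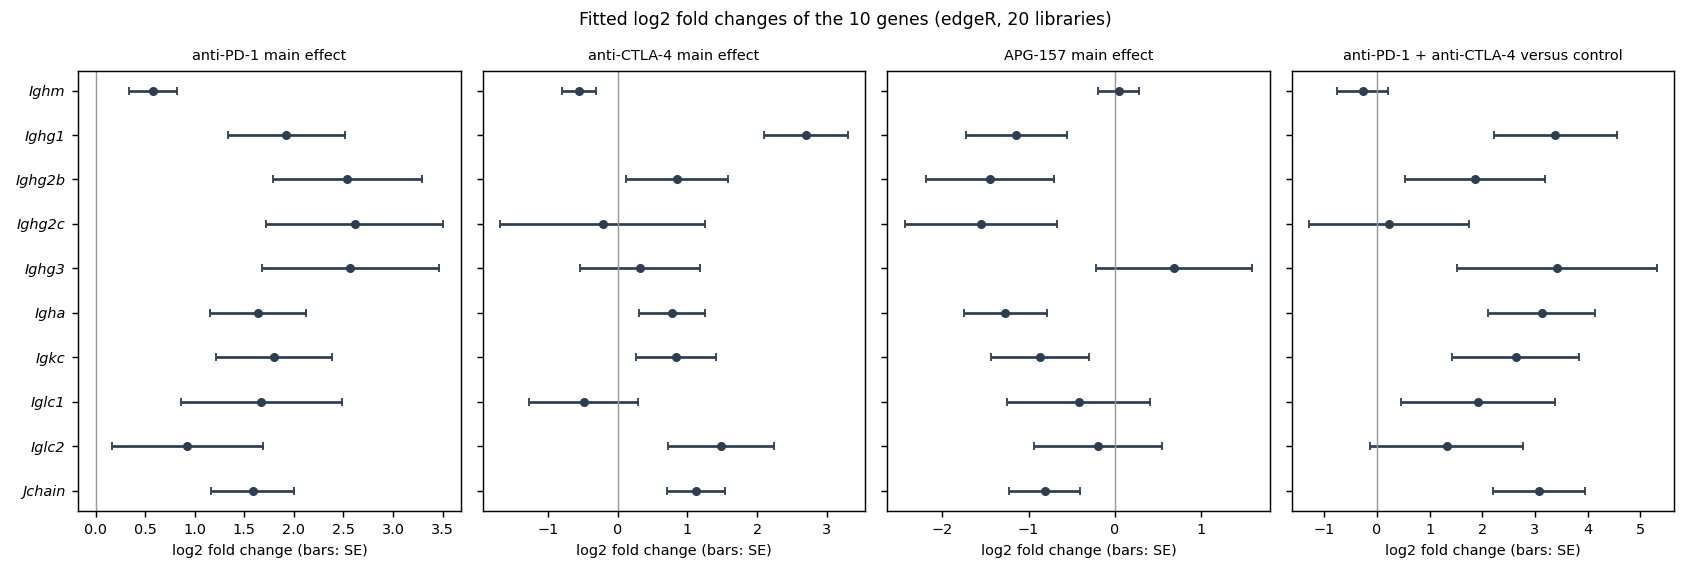
Fitted log2 fold changes of the 10 genes with their SE as bars, for the average effect of each of the 3 agents over the 8 groups without anti-CD8 and for dual blockade against control, from edgeR on 20 libraries. All 10 genes lie above 0 with anti-PD-1, Ighg1 lies highest with anti-CTLA-4 (2.7), and no gene passed an adjusted p of 0.05. The genes share libraries and are not independent of each other.

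Dual blockade had the highest mean levels of IgA, kappa and J chain messages of all groups. By library, this separation held for Igha only. Igkc in dual blockade library A (12.6 CPM) was below library B of the CD8-depleted combination (16.0 CPM) and of APG-157 + anti-PD-1 (13.5 CPM). Jchain in dual blockade library A (4.98 CPM) was below library B of the CD8-depleted combination (5.5 CPM). Mean levels were 19.4 ± 9.1 CPM of Igha in dual blockade and 2.22 ± 0.112 CPM in control (SD, n = 2 each), 19.6 ± 9.77 CPM of Igkc against 3.15 ± 0.799 CPM, and 6.92 ± 2.75 CPM of Jchain against 0.818 ± 0.139 CPM. Both libraries were above both control libraries for Igha, Igkc, Jchain and Ighg1, and also for Ighg2b, Ighg3 and Iglc2. This was not so for Ighm, Ighg2c and Iglc1. The share of all genes with this order was not measured, so the order is a description and not a result about the members. The log2 fold changes were 3.13 for Igha (SE 1.01), 3.08 for Jchain (SE 0.878), 3.39 for Ighg1 (SE 1.17) and 2.63 for Igkc (SE 1.2). Ighg1 had 4.84 without control library A and 2.71 without control library B, and Igkc had 2.02 without dual blockade library B.

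Of the 10 members, 9 had positive values (median 2.27 against −0.04 over all genes) and 4 had an unadjusted p under 0.05 (6.04% of all genes), with edgeR adjusted p of 0.73 for Igha, Jchain and Ighg1 and 0.826 for Igkc. DESeq2 called Jchain alone (log2 fold change 3.1, adjusted p = 0.0404), with 0.467% of all genes called. T cell markers moved with these libraries, with sums of 246 and 381 CPM in dual blockade and 62.8 and 90.6 CPM in control, and 7 of 10 had an unadjusted p under 0.05. Their part was not tested.

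The CD8-depleted combination was compared with control and, to follow the removal of CD8 T cells, with APG-157 + anti-CTLA-4. The labels do not say that these groups share an experiment, so depletion and experiment cannot be told apart here. Ighg1 averaged 4.07 ± 0.375 CPM in the CD8-depleted combination and 0.264 ± 0.236 CPM in control (SD, n = 2 each), a log2 fold change of 3.93 (SE 1.2, edgeR adjusted p = 0.15). Jchain averaged 3.93 ± 2.22 CPM in the CD8-depleted combination and 0.818 ± 0.139 CPM in control, a log2 fold change of 2.26 (SE 0.852, edgeR adjusted p = 0.195). DESeq2 called Ighg1 (log2 fold change 3.96, adjusted p = 0.0103), with 6.90% of all genes called.

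Library B of this group, which stood apart, bore on the size of the Jchain value and hardly on that of Ighg1. Without it the log2 fold change against control was 3.83 for Ighg1 and 1.53 for Jchain (edgeR adjusted p = 1 for both). Without library A it was 3.98 for Ighg1 (edgeR adjusted p = 0.0399) and 2.71 for Jchain (edgeR adjusted p = 0.0446). Ighg1 moved more with the control libraries, to 5.35 without control library A (edgeR adjusted p = 0.496) and 3.21 without control library B (edgeR adjusted p = 0.329). The lone library is then assumed to vary like those of the other groups.

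Against APG-157 + anti-CTLA-4, 9 of 10 members had positive log2 fold changes (median 2.36 against 0.09 over all genes). Ighg2b averaged 1.03 ± 0.249 CPM in the CD8-depleted combination and 0.105 ± 0.0186 CPM in APG-157 + anti-CTLA-4 (SD, n = 2 each), a log2 fold change of 3.27 (SE 1.43, edgeR adjusted p = 0.113). For Jchain it was 2.15 (SE 0.847, edgeR adjusted p = 0.0848), 2.61 without library A of the CD8-depleted combination (edgeR adjusted p = 0.0406), and 1.41 without library B (edgeR adjusted p = 0.471). DESeq2 called Jchain (log2 fold change 2.18, adjusted p = 0.0324). In this comparison edgeR called 19.0% and DESeq2 29.4% of all genes. Of the 10 members, edgeR called 0 and DESeq2 1, which are smaller shares than over all genes. All 6 adipocyte markers were called higher by edgeR, with sums of 78.4 and 4028 CPM in the CD8-depleted combination and 17.6 and 17.2 CPM in APG-157 + anti-CTLA-4. Their part was not tested. With the very close libraries of APG-157 + anti-CTLA-4 summed as 1 sample, chosen after seeing the data, edgeR called 2 genes in all in place of 3722.

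In the groups given 1 agent, edgeR and DESeq2 called no member. In APG-157 against control, 1 of 10 members had a positive log2 fold change. Pooled counts were 2 of Ighg1 in APG-157 against 29 in control, 1 against 29 of Ighg2b and 1 against 62 of Ighg2c. Scaled for depth, these are ratios to control of 0.0642 for Ighg1 (95% counting interval 0.00742 to 0.254), 0.0321 for Ighg2b (7.86e-04 to 0.194) and 0.015 for Ighg2c (3.74e-04 to 0.0868). The fitted log2 fold changes were −3.77 (SE 1.45), −4.63 (SE 1.86) and −5.7 (SE 2.19), with unadjusted p of 0.022 to 0.0274 and an edgeR adjusted p of 1. The 2 control libraries themselves differed, with 24 and 5 counts of Ighg1, 22 and 7 of Ighg2b and 54 and 8 of Ighg2c. Without control library A the fitted values were −2.31 for Ighg1, −3.64 for Ighg2b and −3.83 for Ighg2c, and over all alternatives they were −4.45 to −2.31, −6.90 to −3.64 and −7.98 to −3.83 in the same order. None of the 10 T cell markers had a positive value (median −1.89 against −0.01 over all genes), with sums of 38.7 and 43.9 CPM in APG-157 and 62.8 and 90.6 CPM in control, and their part was not tested.

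In anti-CD8 against control, 1 of 10 members had a positive log2 fold change, and Ighm and Iglc2, given above, had an unadjusted p under 0.05. The T cell markers, all 10 with negative values (median −1.98), summed to 28.2 and 39.6 CPM in anti-CD8 and 62.8 and 90.6 CPM in control, and their part was not tested. DESeq2 called none of the members there, nor for the other single agents or for APG-157 + anti-PD-1 against control. In APG-157 + anti-PD-1 against control all 10 members had positive values (median 1.29 against −0.01 over all genes). Ighg3 averaged 1.42 ± 1.83 CPM in APG-157 + anti-PD-1 and 0.0277 ± 0.0116 CPM in control (SD, n = 2 each), a log2 fold change of 5.56 (SE 1.94, edgeR adjusted p = 1). Without library B it was 2.11 and without library A 6.5. The T cell markers summed to 179.6 and 68.9 CPM in APG-157 + anti-PD-1, 9 of 10 had positive values, and their part was not tested.

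Genes that act around antibodies were called in few of the same tests. Of 15 tested plasma cell genes, such as Xbp1 and Prdm1, which drive the secretory program, edgeR called none in 13 of the 14 comparisons. The exception was the CD8-depleted combination against APG-157 + anti-CTLA-4, with 2 higher and none lower. Of 11 tested genes of class switching and germinal centres, 1 was called lower in that comparison, and of 8 tested antibody receptors and transport genes 1 was called lower. Of 9 tested cytokines and ligands of B cells 1 was called higher there. Each of these shares lies below the 19.0% of all genes called in that comparison. DESeq2 called 4 plasma cell genes, 4 genes of class switching and germinal centres, 1 receptor or transport gene and 1 cytokine or ligand there, with 29.4% of all genes called. No other comparison had an edgeR call in these 4 lists, while DESeq2 called 1 plasma cell gene in the CD8-depleted combination against control (6.90% of all genes called), and 1 plasma cell gene and 1 cytokine or ligand with anti-CTLA-4 (3.23% of all genes called). Among the ligands, Cxcl13, which attracts B cells, ranged from 0.144 to 60.6 CPM, and among the receptors Fcgr4, an activating IgG receptor, from 8.55 to 198 CPM with its highest value in dual blockade library B.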

How the data were processed

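The deposited table holds expected counts per gene. The authors made mRNA libraries, trimmed the reads with Trimmomatic 0.39, estimated transcript counts with Salmon (1.5.0 per the submitters' notes) on GENCODE vM27 (GRCm39) and summed them to genes. Reads that fit several constant genes are divided among them by estimation. A table of log2 values the authors derived from these counts was not used. The members and lists were chosen with earlier results of these data known.

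Values were rounded to whole counts. Low genes were removed with filterByExpr across groups (count minimum 10, total minimum 15). TMM scaling and a robust quasi-likelihood fit of all 20 libraries followed in edgeR 4.0.16 under R 4.3.3 (10 residual degrees of freedom, common biological coefficient of variation 38.7%), and p-values were adjusted over 19567 genes. The SE is the size of the log2 fold change over the root of F. Library totals were 43.9 to 72.1 M counts.

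Levels are given for all members. Fold changes are printed for members with an unadjusted p under 0.05, and for Igkc and Jchain in the average effects and in 2 comparisons with control, APG-157 + anti-CTLA-4 and dual blockade; further values were chosen after they were seen. The genes most like Igkc are the 5 with the highest Pearson r outside the members and the immunoglobulin segments. Shares have Wilson intervals, ratios of low counts exact binomial ones, and a group at 0 a floor of 3 counts. Lengths and sequences are of the shortest GENCODE vM21 transcript of each gene. Alternatives were median-ratio factors, no filter, DESeq2 1.42.0, a replicate block, a log2 fold minimum of 2 and each library left out. Chosen after seeing the data were a fit without library B of the CD8-depleted combination, one with the libraries of APG-157 + anti-CTLA-4 summed, and the Iglc2 bound without each control library or with Iglc3 added. The code was tested on simulated data.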

Additional observations from a re-analysis of the deposited data

How the results depend on the processing

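Of 184 counts of called members under alternatives, 176 stayed at 0. DESeq2 called 1 member in dual blockade against control, 1 in the CD8-depleted combination against control, 1 in that group against APG-157 + anti-CTLA-4, and, for the average effects, 2 for that of anti-PD-1 and 1 for that of anti-CTLA-4. With 1 library left out, the count lay between 0 and 2 in the CD8-depleted combination against control, between 0 and 1 in that group against APG-157 + anti-CTLA-4 and between 0 and 1 for the average effect of anti-CTLA-4, and stayed at 0 in the other 11 comparisons. The cause was not tested. Of 483 fold changes of members, 471 kept direction and side of the threshold, 10 passed it under the alternative, and 2 turned. These were Jchain in APG-157 + anti-CTLA-4 against control, which was 0.11 in the main analysis, −0.05 without control replicate B and −0.10 without APG-157 + anti-CTLA-4 replicate B, in a range of −0.10 to 0.30 (0.3031) over replicates left out. Of the 5 genes most like Igkc, 1 was kept with Spearman's rho, 2 with a pseudocount of 1 and 3 without the library with the highest Igkc.

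Counts of all called genes moved more. In the CD8-depleted combination against APG-157 + anti-CTLA-4, 3722 genes were called, against 5753 by DESeq2, 2149 without a filter, 1348 with a log2 fold over 2 and 2 with the libraries of APG-157 + anti-CTLA-4 summed. For the average effect of anti-CTLA-4 they were 49, against 571 by DESeq2, 83 without a filter, 4 with the fold minimum, 181 without library B of the CD8-depleted combination and 0 with the summed libraries. In APG-157 + anti-CTLA-4 against control they were 4, against 366 by DESeq2, 15 without a filter, 29 without library B and 0 with the summed libraries. In the CD8-depleted combination against control they were 2, against 1323 by DESeq2. The interaction had 1, against 102 by DESeq2 and 0 without a filter, without library B or with the summed libraries. Where edgeR called 0, DESeq2 called 2 to 149.

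With the replicate letter as a block, 0 members were called in each comparison, and 34 genes were called with anti-CTLA-4. Over 45 pairs of groups the deviations of same-lettered libraries correlated at −0.381 to 0.705 (median 0.0164, 13 over 0.1), so the letters were not taken as pairs. Depth limits Ighg2b, Ighg2c, Ighg3, Iglc1 and Iglc2, whose median counts were 4.5 to 16 per library.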

Other observations

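Iglc3, the near copy of Iglc2, had 222 counts in all 20 libraries, against 274 of Iglc2 and 148 of Iglc1. Vpreb1, a surrogate light chain gene of precursor B cells, had 2 to 24 counts per library, while Vpreb3 had 1025 of its 1035 counts in library B of the CD8-depleted combination. Derl3, an endoplasmic reticulum protein of secretory cells, had 150 of its 262 counts in the same library, and Mzb1 40 of its 208.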
